A study of Mus musculus with 2 samples.

Results

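The genes described here are the Wnt ligands, their Frizzled and Lrp5/Lrp6 receptors, the R-spondins, the secreted antagonists of the Sfrp, Dkk and Wif1 families, and the feedback gene Axin2. They were chosen by symbol alone (names beginning with Wnt, Fzd, Sfrp, Dkk or Rspo followed by a number, plus Wif1, Lrp5, Lrp6 and Axin2), which gave 45 of the 27998 genes in the deposited tables: 19 ligands, 10 Frizzled receptors, 2 co-receptors, 4 R-spondins, 9 secreted antagonists and Axin2. The data are single-nucleus RNA sequencing (snRNA-seq) of whole frozen brains of C57BL/6 mice, counted as unique molecular identifiers (UMIs, a tag that counts each captured RNA molecule once). The WBRT-28d library came from brains taken 28 days after whole-brain radiotherapy given as 5 fractions of 2 Gy, and the ShamRT-28d library came from mock-irradiated brains, which the GEO labels call untreated, taken at the same time. Each library pooled the brains of 2 mice. With 1 library per condition, a difference compares those pools of brains, and irradiation cannot be told apart from any other difference between them. No test between conditions was therefore possible, and all intervals printed are 95% intervals that cover counting error only.

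Wnt proteins are lipid-modified signals that act over short distances. A ligand binds a Frizzled receptor together with Lrp5 or Lrp6, which stops the destruction complex from degrading beta-catenin, and beta-catenin then switches on target genes with TCF/LEF factors. Among these targets is Axin2, itself a part of the destruction complex that limits the signal. R-spondins raise the number of receptors at the cell surface, Sfrp proteins and Wif1 bind ligands, and Dkk1, Dkk2 and Dkk4 bind the Lrp co-receptors. In the brain the pathway is best known for building and keeping the blood-brain barrier, where Wnt7a and Wnt7b from glia act on endothelial cells, and for guiding neural progenitors and synapses.

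The WBRT-28d library held 15986 barcodes and 68423922 UMIs, and the ShamRT-28d library 11469 barcodes and 45511469 UMIs. After filters on detected genes, mitochondrial UMIs and doublets, 14043 and 10342 nuclei remained, with medians of 2491 and 2326 UMIs. Of their barcodes 36 occurred in both libraries. The nuclei fell into 33 clusters, built without the members as input, of which 29 were gathered into 13 classes by marker genes and 4 stayed unnamed. The excitatory and inhibitory neuron-like classes were named by their transmitter genes, and only 4 of 6 and 1 of 4 of their markers were highest in their own class. Of the 11 astrocyte markers, 8 were highest in the astrocyte-like class. Although the tissue is labelled whole brain, the markers of cerebellar granule neurons (Gabra6, Fat2 and Cbln3), the most numerous neurons of the mouse brain, summed to only 21 UMIs in WBRT-28d and 26 UMIs in ShamRT-28d. RNA of neurons and oligodendrocytes found in other classes, a measure of free RNA, was put at 24.3% (WBRT-28d) and 10.5% (ShamRT-28d) of its level over the whole library in microglia-like nuclei, with values of 14.5% (WBRT-28d) and 11% (ShamRT-28d) for astrocyte-like nuclei.

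All 45 genes had at least 1 UMI in the kept nuclei, 29 of them at least 100 UMIs and 16 fewer. Levels are given as CPM, the UMIs of a gene divided by all UMIs of that class in that library and scaled to 1000000, and a ratio is the WBRT-28d CPM over the ShamRT-28d CPM. Reads from introns were counted, so that long genes collect more UMIs, and levels are compared here between classes and libraries for 1 gene and not between genes. A member was counted in a class where the 2 libraries together gave it 50 UMIs or more and it reached at least 10% of its level in its highest class, and it was called higher or lower at a ratio of 1.5-fold or more. By this rule 26 members gave 82 values. Of these values 4 were higher in WBRT-28d, where 6.97% of all genes were called higher by the same rule, and 14 were lower, where 7.61% of all genes were called lower. The median log2 ratio over the 82 values was -0.12, against -0.02 over all genes counted. Over all kept nuclei, without classes, 5 of 32 members were higher (4.87% of all genes) and 8 were lower (7.34% of all genes), with a median log2 ratio of 0.04, against -0.01 for all genes. In this pooled view the make-up of the libraries enters too: astrocyte-like nuclei were 9.83% of WBRT-28d and 6.60% of ShamRT-28d nuclei, and excitatory neuron-like nuclei 28.1% and 39.3%. Wnt7a, for example, had a ratio of 1.65 over all nuclei and 1.01 within the astrocyte-like class.

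The members ranged from those counted in 1 class, such as Wnt3 and Wnt6, to Lrp6, which was counted in 12. Of the 31 members with at least 50 UMIs in the classes, 18 had the same highest class in both libraries. The same count over all genes was not made, so this number describes the members only. Over both libraries together, fibroblast-like nuclei, named for cells of the brain's membranes and vessel sheaths, held the highest level of Wnt4, Wnt5a, Wnt6, Fzd1, Fzd2, Fzd7, Fzd8, Rspo2 and Axin2. Endothelial-like nuclei held that of Fzd4, Fzd6 and Dkk2, and astrocyte-like nuclei that of Wnt7a, Wnt7b and Dkk3. All 10 fibroblast markers were highest in fibroblast-like nuclei, where they summed to 2812 CPM in WBRT-28d and 3114 CPM in ShamRT-28d. The 11 astrocyte markers summed to more in these nuclei, 10113 CPM in WBRT-28d and 10858 CPM in ShamRT-28d. Their part in the members' levels there was not tested.

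**Figure D1:**
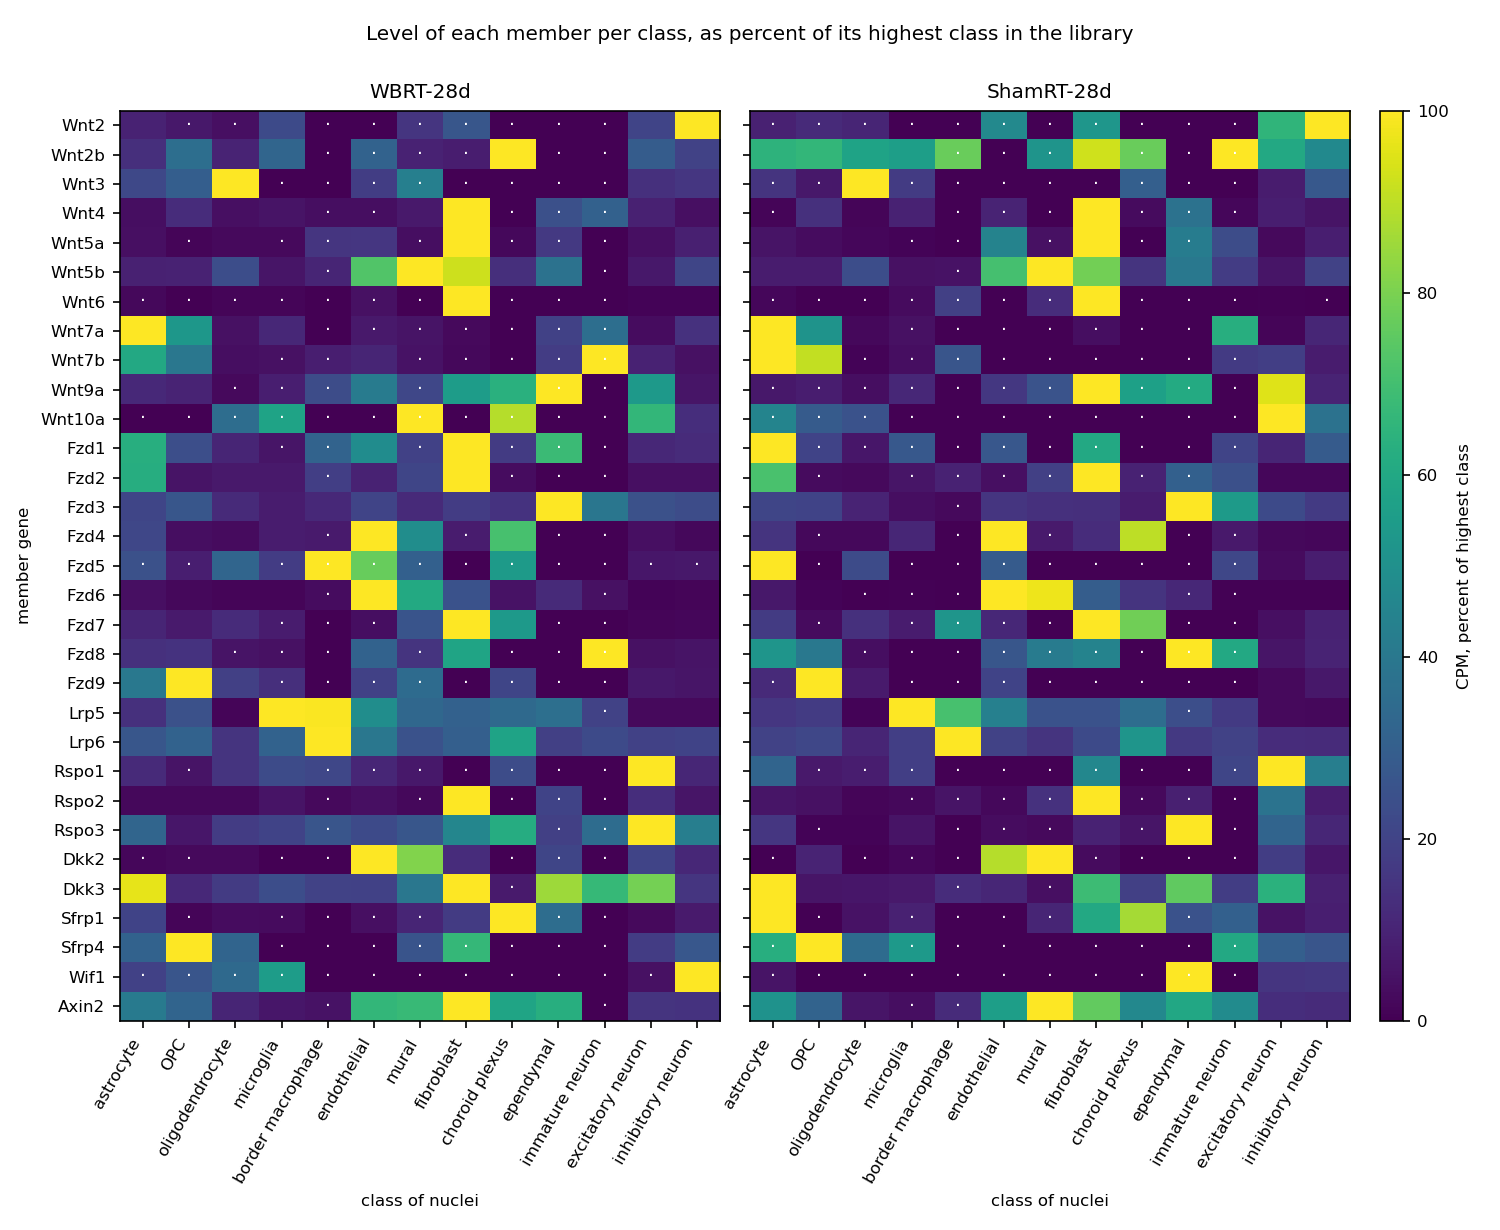
Level of each member in each class, as percent of its highest class in that library, for WBRT-28d and ShamRT-28d. Rows are members with at least 50 UMIs in the classes, columns are classes, brighter cells are higher and a dot marks a value from under 5 UMIs. Wnt4, Wnt5a, Wnt6, Fzd2 and Fzd7 peak in fibroblast-like nuclei and Fzd4 and Fzd6 in endothelial-like nuclei in both libraries.

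Among the ligands, those of fibroblast-like nuclei had near-equal levels in the libraries. Wnt4, a ligand of kidney and reproductive tract development, had 100 UMIs (104 CPM) in WBRT-28d and 71 UMIs (112 CPM) in ShamRT-28d fibroblast-like nuclei. Wnt5a, the best known ligand of the branch that does not use beta-catenin, had 99 UMIs (103 CPM) and 64 UMIs (101 CPM) there. Wnt6 had 44 UMIs (45.8 CPM) and 22 UMIs (34.6 CPM). None of these passed 1.5-fold, and none of the 12 members counted in the fibroblast-like class did (6.23% of its genes were called higher and 6.17% lower). Wnt5b, a close relative of Wnt5a, was highest in mural-like nuclei, the pericytes and smooth muscle of vessels, with 93 UMIs (113 CPM) in WBRT-28d and 30 UMIs (132 CPM) in ShamRT-28d. It was also high in an inhibitory cluster led by Vip and Adarb2, genes of a class of cortical interneurons, with 105 CPM in WBRT-28d and 117 CPM in ShamRT-28d.

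Wnt7a and Wnt7b, the ligands that endothelial cells read through Reck and Adgra2, were highest in astrocyte-like nuclei over both libraries together. Wnt7a had 181 UMIs (44.4 CPM) in WBRT-28d and 80 UMIs (43.9 CPM) in ShamRT-28d, a ratio of 1.01 (0.773 to 1.33). Wnt7b had 119 UMIs (29.2 CPM) in WBRT-28d and 45 UMIs (24.7 CPM) in ShamRT-28d, a ratio of 1.18. Beneath the like class values of Wnt7b the 2 astrocyte-like clusters went opposite ways. In the larger cluster (cluster 2), led by Acsbg1 and Gpc5, Wnt7b had 110 UMIs (34.3 CPM) in WBRT-28d and 27 UMIs (20.8 CPM) in ShamRT-28d, whereas in the smaller one (cluster 18), led by Myoc and Gfap, it had 9 UMIs (10.3 CPM) and 18 UMIs (34.2 CPM). In OPC-like nuclei, the progenitors of oligodendrocytes, Wnt7a had 23.4 CPM in WBRT-28d and 22.5 CPM in ShamRT-28d, and Wnt7b 19.1 and 22.5 CPM. No member among the 8 counted in this class passed 1.5-fold (5.02% of its genes were called higher and 5.93% lower).

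Of the ligands 5 passed 1.5-fold in a class, 1 of them upward. Wnt2, which in other organs drives lung and placental development, was higher in inhibitory neuron-like nuclei, where 246 UMIs (15.6 CPM) were counted in WBRT-28d and 52 UMIs (5.97 CPM) in ShamRT-28d, a ratio of 2.62 (1.94 to 3.61). In this class 2.83% of all genes were called higher and 6.81% lower. A pair of clusters carried Wnt2. In cluster 3, led by Sh3rf2, Drd2 and Rgs9, it had 159 UMIs (34.7 CPM) in WBRT-28d and 27 UMIs (12.4 CPM) in ShamRT-28d, and in cluster 22, led by Stac and Drd3, which mark the islands of Calleja, it had 71 UMIs (76.5 CPM) and 7 UMIs (89.3 CPM). The second cluster thus had near-equal levels but held 206 nuclei of WBRT-28d and only 14 of ShamRT-28d. In the first one Drd3 and Cux2 moved along with Wnt2: Drd3, a dopamine receptor, had 67.6 CPM in WBRT-28d and 6.91 CPM in ShamRT-28d, and Cux2, a gene of upper cortical layers, 143 and 13.4 CPM. Drd2 itself had 128 CPM in WBRT-28d and 188 CPM in ShamRT-28d there. The part of these shifts in the Wnt2 result was not tested. With the clusters weighted alike in both libraries the ratio of Wnt2 was 1.70.

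The other 4 ligands were lower. Wnt9a, known from joint and blood stem cell development, was counted in excitatory neuron-like nuclei with 153 UMIs (9.10 CPM) in WBRT-28d and 324 UMIs (16.4 CPM) in ShamRT-28d, a ratio of 0.554 (0.454 to 0.674). All 5 excitatory clusters with at least 25 UMIs of Wnt9a had a lower level in WBRT-28d, with ratios between 0.294 and 0.746, but with each nucleus classed by its own markers in place of its cluster the class ratio was 0.692, short of 1.5-fold. The highest level of Wnt9a, in ependymal-like nuclei, rested on 2 UMIs (16.995 CPM) in WBRT-28d and 1 UMI (10.6 CPM) in ShamRT-28d. In the excitatory neuron-like class 2.24% of all genes were called higher and 7.13% lower. Wnt10a, a ligand of tooth and skin appendage development, had 27 UMIs (1.61 CPM) in WBRT-28d and 48 UMIs (2.43 CPM) in ShamRT-28d in the same class, a ratio of 0.660 (0.396 to 1.08) whose interval includes 1 and which fell short of 1.5-fold under 5 of 9 alternatives, at up to 0.732. Wnt3 had 26 UMIs (5.62 CPM) in WBRT-28d and 53 UMIs (10.9 CPM) in ShamRT-28d oligodendrocyte-like nuclei, its highest class, and the ratio was 0.518 (0.311 to 0.843). There 7.14% of all genes were called higher and 5.13% lower. Wnt2b had 40 UMIs (2.54 CPM) and 35 UMIs (4.02 CPM) in inhibitory neuron-like nuclei, a ratio of 0.633 (0.392 to 1.03). Gm43846, a gene model on the same strand, overlaps Wnt2b, and the effect of this on the counts was not tested. The highest level of Wnt2b, in choroid plexus epithelial-like nuclei, rested on 6 UMIs (12.9 CPM) in WBRT-28d and 2 UMIs (6.56 CPM) in ShamRT-28d.

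**Figure D2:**
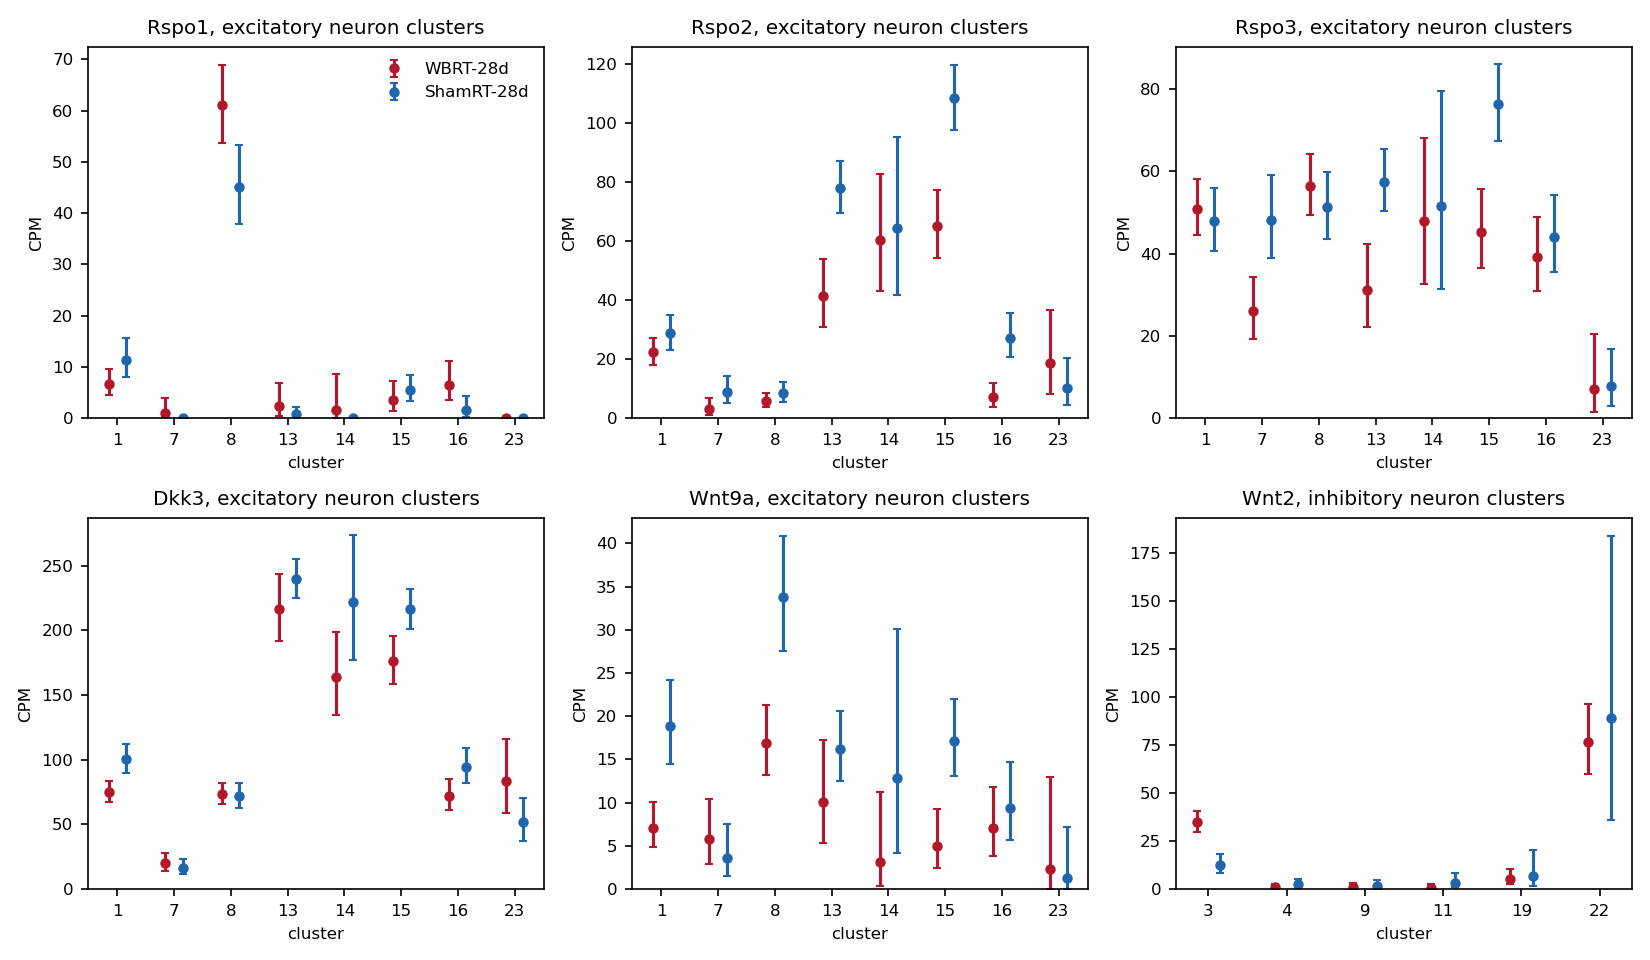
CPM of selected members in the clusters of the excitatory and inhibitory neuron-like classes, WBRT-28d beside ShamRT-28d, with exact Poisson 95% intervals as error bars and 1 library per condition. Rspo2 and Wnt9a are lower in WBRT-28d in every excitatory cluster with at least 25 of their UMIs, while Wnt2 is higher in cluster 3 (34.7 and 12.4 CPM).

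The Frizzled receptors were spread over glia, vessels and membranes. Fzd6, a receptor of the planar polarity branch, was highest in endothelial-like nuclei with 358 UMIs (362 CPM) in WBRT-28d and 133 UMIs (374 CPM) in ShamRT-28d, a ratio of 0.967. In mural-like nuclei the libraries separated: Fzd6 had 182 UMIs (221 CPM) in WBRT-28d and 83 UMIs (365 CPM) in ShamRT-28d, a ratio of 0.605 (0.464 to 0.794), or 0.680 and short of 1.5-fold once predicted free RNA was subtracted. In this class 19.8% of all genes were called higher and 8.63% lower.

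The make-up of the mural-like nuclei moved with that result. Acta2 and Myh11, contractile genes of smooth muscle, had 326 and 573 CPM in WBRT-28d and 48.4 and 110 CPM in ShamRT-28d. Kcnj8, Vtn and Atp13a5, genes of pericytes, had 108, 1178 and 2867 CPM in WBRT-28d and 268, 2528 and 5056 CPM in ShamRT-28d. All 9 mural markers were detected in both libraries, and their sum was 8449 CPM in WBRT-28d and 13193 CPM in ShamRT-28d. The 10 endothelial markers summed to 2487 CPM in WBRT-28d and 906 CPM in ShamRT-28d in the same nuclei, with none at 0. The part of these shifts in the Fzd6 value, and in those of Axin2 below, was not tested.

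**Figure D3:**
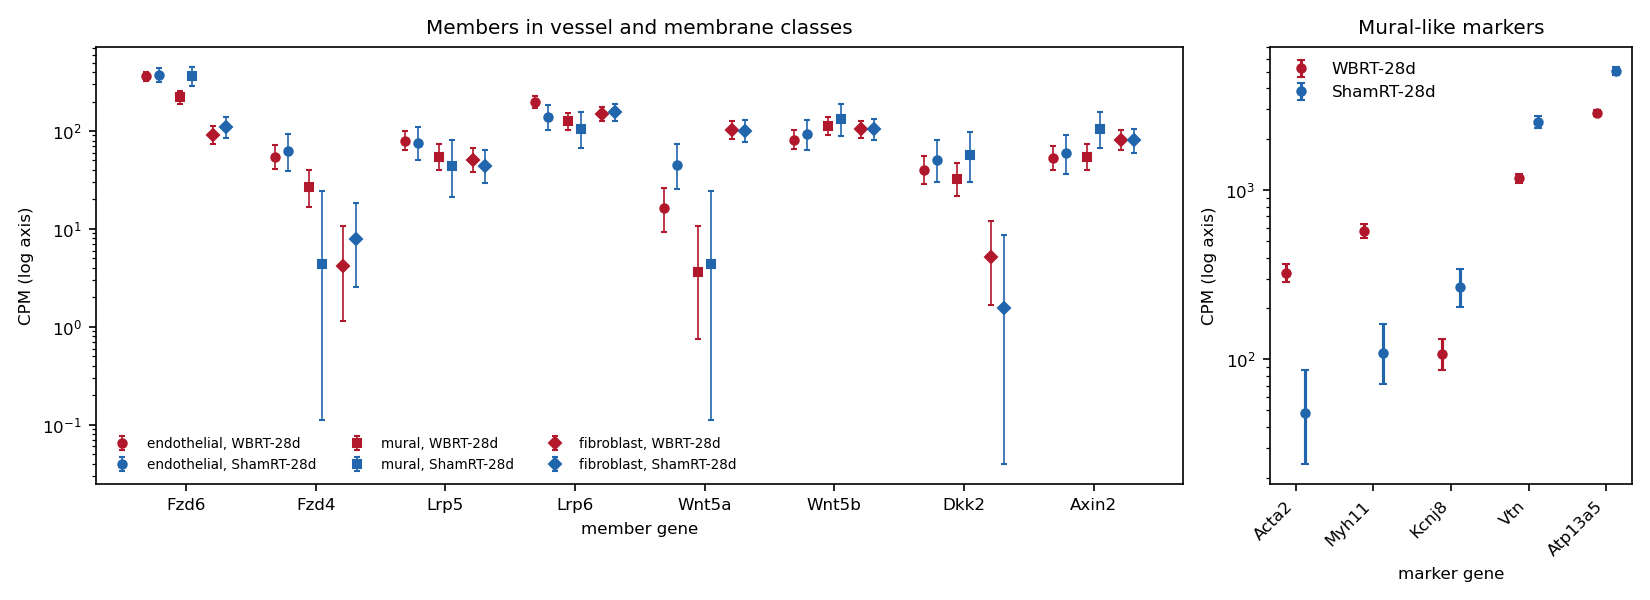
Left, CPM of members in endothelial-like, mural-like and fibroblast-like nuclei on a log axis, WBRT-28d beside ShamRT-28d, with exact Poisson 95% intervals. Right, CPM of the mural markers in mural-like nuclei: Acta2 and Myh11 are higher in WBRT-28d and Kcnj8, Vtn and Atp13a5 lower, beside Fzd6 at 221 and 365 CPM.

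Fzd4, the receptor for norrin and for Wnt7 signals in brain vessels, was highest in endothelial-like nuclei, with 54 UMIs (54.6 CPM) in WBRT-28d and 22 UMIs (61.9 CPM) in ShamRT-28d. At the depth of 531 and 228 endothelial-like nuclei its ratio was 0.882 (0.528 to 1.52), an interval that includes changes of 1.5-fold either way. None of the 8 members counted in that class passed 1.5-fold (11.4% of its genes were called higher and 7.65% lower). Fzd2 and Fzd7, paired receptors of early development, were highest in fibroblast-like nuclei: Fzd2 had 61 UMIs (63.5 CPM) in WBRT-28d and 44 UMIs (69.1 CPM) in ShamRT-28d, and Fzd7 had 27 UMIs (28.1 CPM) and 16 UMIs (25.1 CPM). Fzd9, known from hippocampal and neuromuscular development, was highest in OPC-like nuclei, with 31 UMIs (10.4 CPM) and 20 UMIs (14.0 CPM).

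Fzd3, which guides axons, had the most UMIs of the Frizzled receptors and was counted in 8 classes. Its highest level was in ependymal-like nuclei, the ciliated lining of the ventricles, with 24 UMIs (204 CPM) in WBRT-28d and 24 UMIs (253 CPM) in ShamRT-28d. In excitatory neuron-like nuclei it had 50.2 and 57.0 CPM, and in inhibitory neuron-like nuclei 47.8 and 43.5 CPM. It passed 1.5-fold only in immature neuron-like nuclei, where 5 UMIs in 13 nuclei of WBRT-28d (80.3 CPM) stood against 65 UMIs in 135 nuclei of ShamRT-28d (138 CPM), a ratio of 0.583 (0.183 to 1.43). In that class 30.3% of all genes were called lower and 17.7% higher, and the libraries differed in its markers: the 9 immature neuron markers summed to 659 CPM in WBRT-28d, with 3 at 0, and 2814 CPM in ShamRT-28d, with none at 0, and the 8 OPC markers to 6603 and 2048 CPM. Its cluster was led by Top2a, and 4 markers of dividing cells summed to 1558 CPM in WBRT-28d and 1094 CPM in ShamRT-28d. In WBRT-28d the OPC markers thus summed to more than the immature neuron markers, so the class name is uncertain for those 13 nuclei. The free RNA measure could not be used for this class. In WBRT-28d it was put at 117% of its level over the whole library, so it did not separate free RNA from the nuclei's own RNA. The levels of Fzd3 predicted from it, 50.9 CPM in WBRT-28d and 29.0 CPM in ShamRT-28d, therefore cannot be read as free RNA. The part of the marker shifts and of free RNA in the ratio was not tested. Gm27263 overlaps Fzd3 on the same strand, and the effect of this on the counts was not tested. Fzd1 had 24 UMIs (1.53 CPM) in WBRT-28d and 26 UMIs (2.99 CPM) in ShamRT-28d in inhibitory neuron-like nuclei, a ratio of 0.511 (0.281 to 0.927), which turned to 1.97 when each nucleus was classed by its own markers in place of its cluster. Its highest class was fibroblast-like with 12 and 4 UMIs, and that of Fzd8 was also fibroblast-like with 9 and 3 UMIs, too few to compare.

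The co-receptors Lrp5 and Lrp6 together gave 19 values, of which none passed 1.5-fold. Over all class values 6.97% of all genes were called higher and 7.61% lower. Lrp5, whose loss in people causes fragile bones and poor retinal vessels, was highest in microglia-like nuclei with 232 UMIs (163 CPM) in WBRT-28d and 184 UMIs (175 CPM) in ShamRT-28d. Lrp6 was highest in border macrophage-like nuclei, the macrophages of membranes and perivascular spaces, with 126 UMIs (498 CPM) in WBRT-28d and 106 UMIs (694 CPM) in ShamRT-28d, a ratio of 0.719. In that class 13.6% of all genes were called higher and 12.2% lower. The ratio of Lrp6 nearest the limit upward was in endothelial-like nuclei, with 196 UMIs (198 CPM) in WBRT-28d and 49 UMIs (138 CPM) in ShamRT-28d, a ratio of 1.44. In the neuron-like classes, where most of its UMIs lay, Lrp6 had 96.1 and 88.6 CPM (excitatory) and 99.6 and 86.5 CPM (inhibitory).

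The R-spondins, which act through Lgr receptors and the ligases Znrf3 and Rnf43, gave ratios on both sides. Rspo1, Rspo2 and Rspo3 had most of their UMIs in neuron-like nuclei. Of these genes only Rspo1 also had its highest CPM there over both libraries together. Rspo1 had 311 UMIs (18.5 CPM) in WBRT-28d and 201 UMIs (10.2 CPM) in ShamRT-28d excitatory neuron-like nuclei, a ratio of 1.82 (1.52 to 2.18). It was concentrated in 1 cluster (cluster 8), led by Adam33 and Kcnh5, with 256 UMIs (61.0 CPM) in WBRT-28d and 139 UMIs (45.1 CPM) in ShamRT-28d, a ratio of 1.35 (1.10 to 1.67), and that cluster held 488 and 310 nuclei. Of the 3 excitatory clusters with at least 25 UMIs of Rspo1, the other 2 were lower in WBRT-28d, both past 1.5-fold, down to a ratio of 0.590. With the clusters weighted alike in both libraries the class ratio was 1.23, short of 1.5-fold. In inhibitory neuron-like nuclei Rspo1 had 31 UMIs (1.97 CPM) in WBRT-28d and 38 UMIs (4.36 CPM) in ShamRT-28d, a ratio of 0.452 (0.272 to 0.746). The level predicted from free RNA alone was 2.58 CPM in WBRT-28d and 1.36 CPM in ShamRT-28d, so that the WBRT-28d level was not above it.

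Rspo2, needed for limb and lung growth, was lower in excitatory neuron-like nuclei with 370 UMIs (22.0 CPM) in WBRT-28d and 923 UMIs (46.8 CPM) in ShamRT-28d, a ratio of 0.471 (0.416 to 0.532). All 6 excitatory clusters with at least 25 UMIs had a lower level in WBRT-28d. In cluster 15, led by AI481877 and Rspo2 itself, it had 129 UMIs (64.9 CPM) and 380 UMIs (108 CPM), and in cluster 13, led by Hs3st4 and Tmem178, it had 53 UMIs (41.2 CPM) and 317 UMIs (77.9 CPM). The ratios ran from 0.258 to 0.937, and the ratio with clusters weighted alike was 0.607, nearer 1 than that of the class. These 2 clusters held 210 and 157 nuclei of WBRT-28d, and 301 and 390 nuclei of ShamRT-28d. Over all classes Rspo2 was highest in fibroblast-like nuclei, with 161 UMIs (168 CPM) in WBRT-28d and 78 UMIs (123 CPM) in ShamRT-28d, a ratio of 1.37.

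Rspo3, an R-spondin of vessel and placental growth, did not pass 1.5-fold over the excitatory class, with 760 UMIs (45.2 CPM) in WBRT-28d and 1141 UMIs (57.8 CPM) in ShamRT-28d, but 5 of its 7 excitatory clusters were lower and 3 of them past 1.5-fold. In clusters 15 and 13 its ratios were 0.593 and 0.541, and in cluster 8 it was 1.10, with 237 UMIs (56.5 CPM) in WBRT-28d and 158 UMIs (51.3 CPM) in ShamRT-28d. In astrocyte-like nuclei it had 60 UMIs (14.7 CPM) in WBRT-28d and 52 UMIs (28.5 CPM) in ShamRT-28d, a ratio of 0.516 (0.350 to 0.762), and it was lower in both astrocyte-like clusters. Ependymal-like nuclei, the highest class of Rspo3 over both libraries, gave 1 UMI in 44 nuclei of WBRT-28d and 17 UMIs in 35 nuclei of ShamRT-28d. These are below the 50 UMIs needed to be counted. Gm20276 overlaps Rspo3 on the same strand, and the effect of this on the counts was not tested.

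**Figure D4:**
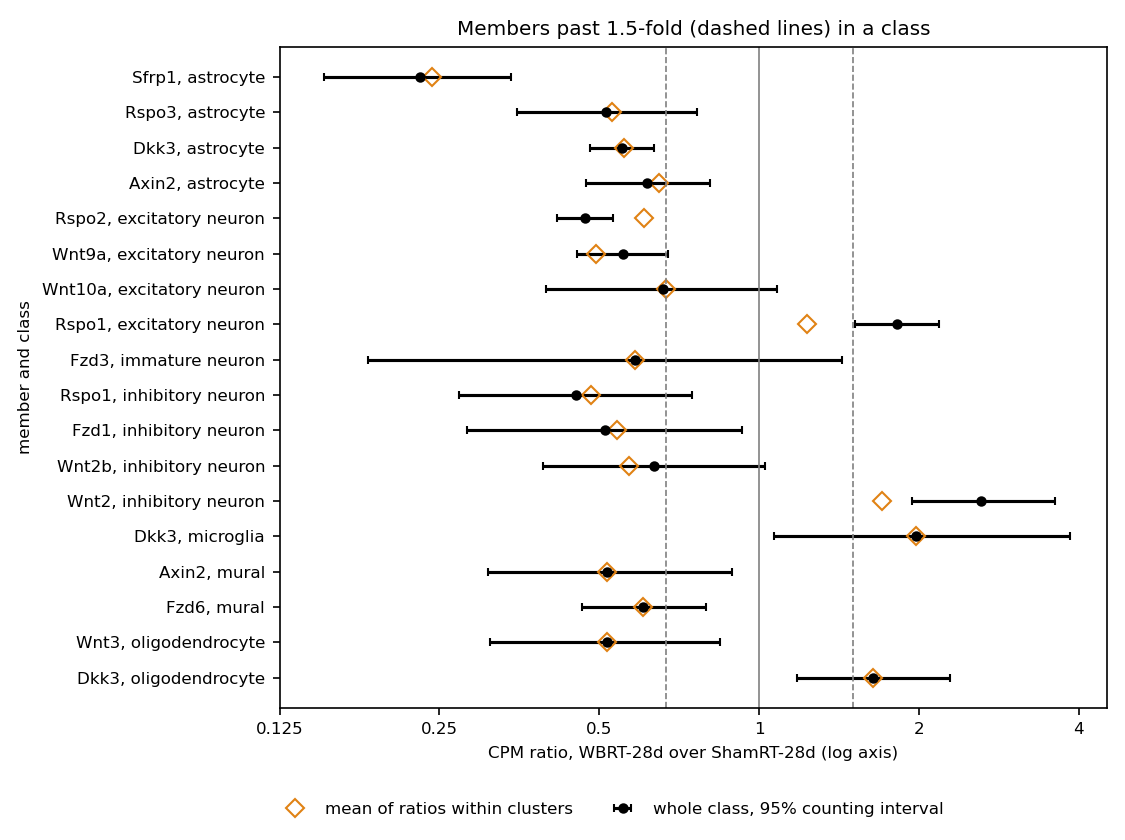
CPM ratio of WBRT-28d over ShamRT-28d on a log axis for the 18 member and class values past 1.5-fold, with 95% conditional binomial intervals that cover counting error only. Diamonds give the ratio with clusters weighted alike in both libraries. Dashed lines mark 1.5-fold either way, and 4 values lie above and 14 below, from 2.62 for Wnt2 in inhibitory neuron-like nuclei to 0.229 for Sfrp1 in astrocyte-like nuclei.

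The secreted antagonists gave both the lowest ratio and ratios of opposite sign for 1 gene. Sfrp1, which binds ligands outside the cell (chr8:23411502-23449632, plus strand, mm10), was lower in astrocyte-like nuclei with 39 UMIs (9.56 CPM) in WBRT-28d and 76 UMIs (41.7 CPM) in ShamRT-28d, a ratio of 0.229 (0.152 to 0.342). The share of nuclei with a Sfrp1 UMI was 2.17% of 1381 in WBRT-28d (Clopper-Pearson interval 1.47% to 3.09%) and 7.47% of 683 in ShamRT-28d (5.61% to 9.70%), against 0.289% and 0.354% in the microglia-like class, which should lack it. Thinned to 1000 UMIs per nucleus the astrocyte-like shares were 0.92% and 3.94%. Median depths in WBRT-28d and ShamRT-28d were 2685 and 2342 UMIs (astrocyte-like) and 1869 and 1659 UMIs (microglia-like). The Myoc and Gfap cluster carried most of the gap, with 8 UMIs (9.13 CPM) in 269 nuclei of WBRT-28d and 55 UMIs (104 CPM) in 184 nuclei of ShamRT-28d, a ratio of 0.0875 (0.0360 to 0.185). In the larger cluster Sfrp1 had 31 UMIs (9.68 CPM) and 21 UMIs (16.2 CPM), and that interval, 0.332 to 1.09, includes 1. Elsewhere Sfrp1 was found in choroid plexus epithelial-like nuclei, its highest class over both libraries, with 22 UMIs (47.4 CPM) in WBRT-28d and 11 UMIs (36.1 CPM) in ShamRT-28d.

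Dkk3, the divergent member of its family that is not an established Lrp ligand (chr7:112116017-112159057, minus strand, mm10), was lower in astrocyte-like nuclei as well. It had 470 UMIs (115 CPM) in WBRT-28d and 381 UMIs (209 CPM) in ShamRT-28d, a ratio of 0.551 (0.481 to 0.633). Both astrocyte-like clusters had the lower level in WBRT-28d: 115 CPM against 184 CPM in the larger, and 114 CPM against 270 CPM in the Myoc and Gfap cluster. In excitatory neuron-like nuclei, which held most of its UMIs, it had 1590 UMIs (94.6 CPM) in WBRT-28d and 2640 UMIs (134 CPM) in ShamRT-28d, a ratio of 0.707 that did not pass the limit, and its cluster ratios there ran from 0.740 to 1.62.

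In 2 other classes Dkk3 was higher in WBRT-28d, at low levels. Oligodendrocyte-like nuclei had 96 UMIs (20.8 CPM) in WBRT-28d and 62 UMIs (12.7 CPM) in ShamRT-28d, a ratio of 1.64 (1.18 to 2.29), and microglia-like nuclei had 40 UMIs (28.2 CPM) and 15 UMIs (14.3 CPM), a ratio of 1.97 (1.07 to 3.85). In the microglia-like class 9.39% of all genes were called higher and 6.57% lower. The level that free RNA alone would give was 11.4 CPM in WBRT-28d and 7.87 CPM in ShamRT-28d for oligodendrocyte-like nuclei, and 13.2 and 8.87 CPM for microglia-like nuclei. With doublets kept neither ratio passed 1.5-fold (1.35 and 1.499), and with each nucleus classed by its own markers the direction turned in oligodendrocyte-like nuclei (0.828) and the ratio was 1.10 in microglia-like nuclei.

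Dkk2, which binds Lrp6, was highest in endothelial-like nuclei with 40 UMIs (40.4 CPM) in WBRT-28d and 18 UMIs (50.7 CPM) in ShamRT-28d, and reached 116 CPM in WBRT-28d and 124 CPM in ShamRT-28d in an excitatory cluster led by Tshz2 and Slc17a8. Sfrp4 was highest in OPC-like nuclei with only 14 and 5 UMIs. Wif1 had 1 UMI in WBRT-28d and 32 UMIs in ShamRT-28d among excitatory neuron-like nuclei. The excitatory cluster led by Syt9 and Pou4f1 held 2 nuclei of WBRT-28d and 135 of ShamRT-28d. Wif1 was not followed per cluster, so whether these nuclei held its UMIs was not tested.

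Axin2, the feedback gene read most often as a sign of beta-catenin signalling (chr11:108920349-108950783, plus strand, mm10), was highest in fibroblast-like nuclei over both libraries together, with 78 UMIs (81.2 CPM) in WBRT-28d and 51 UMIs (80.1 CPM) in ShamRT-28d, a ratio of 1.01. It was lower in astrocyte-like nuclei, with 135 UMIs (33.1 CPM) and 98 UMIs (53.8 CPM), a ratio of 0.616 (0.471 to 0.807), and in mural-like nuclei, with 45 UMIs (54.5 CPM) and 24 UMIs (106 CPM), a ratio of 0.517 (0.308 to 0.887). In endothelial-like nuclei it had 53 UMIs (53.6 CPM) in WBRT-28d and 21 UMIs (59.1 CPM) in ShamRT-28d, and in the neuron-like classes 12.1 and 14.0 CPM (excitatory) and 12.02 and 12.97 CPM (inhibitory). Thus 2 of the 7 classes that counted Axin2 passed 1.5-fold, both downward. Within the astrocyte-like class it was lower in both clusters, with ratios of 0.702 (0.496 to 1.004) in the larger and 0.575 (0.369 to 0.893) in the Myoc and Gfap cluster.

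RefSeq promoter windows matched 29 of the 45 members. That of Axin2 is shown because its level is the readout of the pathway, as the 250 bases before its start on the plus strand, chr11:108920099-108920348 (GRCm38.p6), with GC boxes in capitals.
Axin2: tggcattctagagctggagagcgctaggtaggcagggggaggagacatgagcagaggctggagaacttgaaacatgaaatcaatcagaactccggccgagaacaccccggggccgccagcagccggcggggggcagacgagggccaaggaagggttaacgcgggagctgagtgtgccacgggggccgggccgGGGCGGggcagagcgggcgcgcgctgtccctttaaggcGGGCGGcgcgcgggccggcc
Searched on both strands, the window holds 2 GC boxes (GGGCGG), a motif found in 32.7% of 32851 windows of the same length. The core of the TCF/LEF motif, CTTTGA, is found in 13.8% of those windows and has 0 matches in these bases, which says only that the letters are not in this window.

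Taking the astrocyte-like class as a whole, 12 members were counted, 0 were higher (4.61% of all genes) and 4 were lower (7.26% of all genes): Sfrp1, Rspo3, Dkk3 and Axin2. Of the 12 ratios 9 were below 1, beside 55.0% of all genes counted in the class, and the median log2 ratio was -0.31, against -0.04 over all genes. Fzd2 had 39.5 CPM in WBRT-28d and 49.4 CPM in ShamRT-28d, and Fzd3 42.9 and 52.7 CPM, both short of 1.5-fold. The 11 astrocyte markers summed to 7532 CPM in WBRT-28d and 7816 CPM in ShamRT-28d with none at 0, a ratio of 0.964. The 10 oligodendrocyte markers summed to 1899 CPM in WBRT-28d and 1233 CPM in ShamRT-28d in these nuclei, and Mobp, a myelin gene, had 382 CPM and 91.1 CPM in the Myoc and Gfap cluster. In that cluster Gfap had 438 CPM in WBRT-28d and 429 CPM in ShamRT-28d, and Myoc 592 and 330 CPM. The part of these marker shifts in the members' ratios was not tested.

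**Figure D5:**
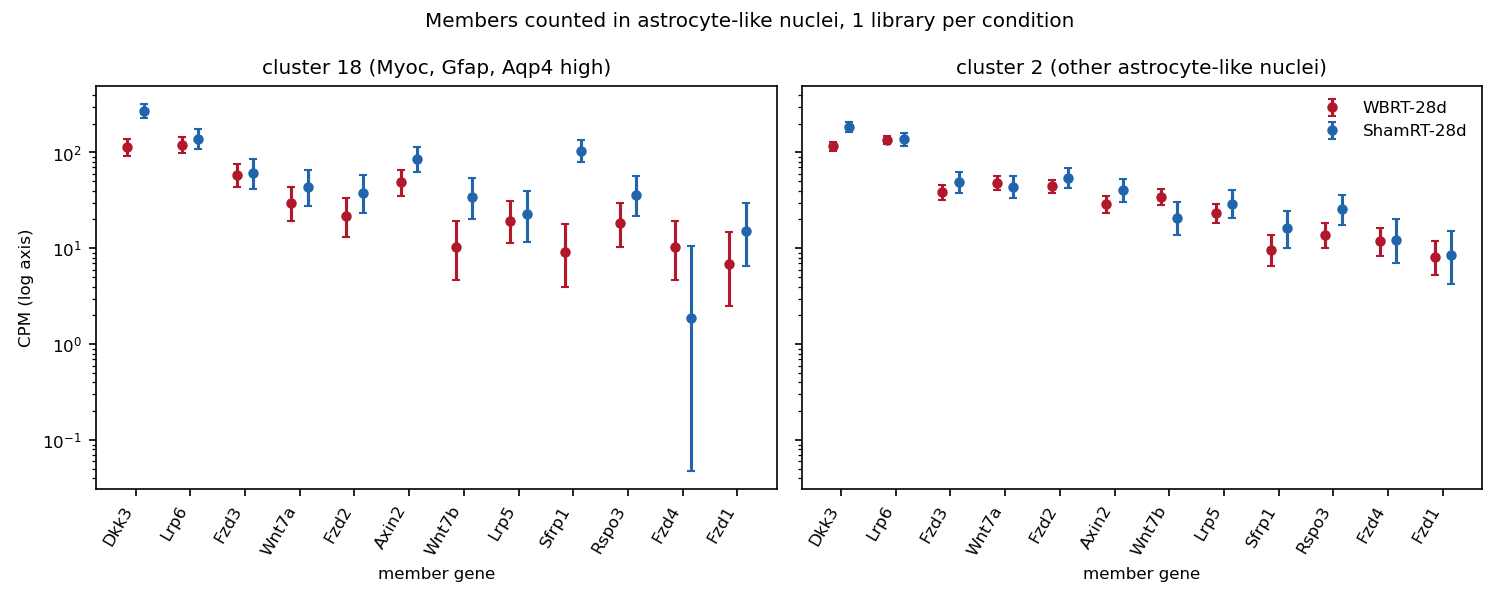
CPM on a log axis of the members counted in astrocyte-like nuclei, in the Myoc and Gfap cluster (18) and the larger cluster (2), WBRT-28d beside ShamRT-28d, with exact Poisson 95% intervals. Sfrp1 and Dkk3 are lower in WBRT-28d in both clusters, most in the Myoc and Gfap cluster, where Sfrp1 is at 9.13 and 104 CPM.

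Other genes of the pathway were followed in the same way, by lists chosen with earlier results of these data known, and the background is again 6.97% higher and 7.61% lower over all class values. Of the secretion genes, 1 of 19 class values was higher and 4 were lower, with a median log2 ratio of -0.31, and all 5 belonged to Wls, the carrier that brings ligands to the cell surface. Wls had 727 UMIs (43.3 CPM) in WBRT-28d and 1540 UMIs (78.1 CPM) in ShamRT-28d excitatory neuron-like nuclei, a ratio of 0.554, and 326 UMIs (395 CPM) and 145 UMIs (637 CPM) in mural-like nuclei, a ratio of 0.620. In ependymal-like nuclei it had 14 UMIs (119 CPM) in WBRT-28d and 63 UMIs (665 CPM) in ShamRT-28d.

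Of the other receptors, 5 of 87 values were higher and 5 lower. Among them Lgr6, an R-spondin receptor, had 22.8 CPM in WBRT-28d and 40.0 CPM in ShamRT-28d astrocyte-like nuclei, and Lgr5, its relative, 9.10 CPM and 18.03 CPM in inhibitory neuron-like nuclei. The ligases Znrf3 and Rnf43, which remove Frizzled receptors from the surface, had 495 and 108 CPM in WBRT-28d and 328 and 59.0 CPM in ShamRT-28d choroid plexus epithelial-like nuclei, ratios of 1.51 and 1.82. The only member counted in that class, Lrp6, had 288 CPM in WBRT-28d and 361 CPM in ShamRT-28d (9.53% of the class's genes were called higher and 7.56% lower).

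The cytoplasmic relay gave 6 higher and 4 lower of 162 values, the nuclear factors 4 and 6 of 87, and the feedback and target genes 7 and 1 of 50. These lists overlap, so their counts are not independent. Znrf3, Rnf43, Lgr5, Lef1, Tcf7, Notum and Apcdd1 are among the feedback and target genes and also in another list. The values of Znrf3, Rnf43 and Lgr5 given above are therefore counted again here. Apc, Gsk3b and Csnk1a1 of the destruction complex had the most UMIs of the relay list, and the list's median log2 ratio was 0.04. Tle4, a co-repressor, had 145 CPM in WBRT-28d and 251 CPM in ShamRT-28d excitatory neuron-like nuclei, a ratio of 0.578. It is also a gene of layer 6 corticothalamic neurons, whose 6 markers, Tle4 among them, summed to 1183 CPM in WBRT-28d and 1662 CPM in ShamRT-28d in that class with none at 0, and cluster 13, led by Hs3st4 of the same list, held 157 and 390 nuclei. Their part in the ratio was not tested. Among the targets, Cldn5 and Slc2a1, genes of the endothelial barrier, were higher in mural-like nuclei, Cldn5 with 92 UMIs in WBRT-28d and 2 UMIs in ShamRT-28d, beside the endothelial marker sum given above. Other antagonists gave 0 higher and 2 lower of 8 values. The planar polarity and calcium branch gave 17 higher and 7 lower of 116 values. Its calcium kinases Camk2a and Camk2b, genes of neurons, were among the higher ones in glial and vessel classes, where the free RNA estimate was also higher in WBRT-28d, at 26.3% and 14.6% in endothelial-like nuclei for example, and its part in them was not tested. Vangl2 and Celsr1, core polarity genes, had 15.9 and 44.4 CPM in WBRT-28d and 27.4 and 81.7 CPM in ShamRT-28d astrocyte-like nuclei.

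The 16 members with under 100 UMIs were Wnt1, Wnt3a, Wnt8a, Wnt8b, Wnt9b, Wnt10b, Wnt11, Wnt16, Fzd5, Fzd10, Rspo4, Dkk1, Dkk4, Sfrp2, Sfrp5 and Wif1. Over all nuclei Fzd5 had 37 UMIs (WBRT-28d) and 48 UMIs (ShamRT-28d), of which 4 and 18 were in astrocyte-like nuclei. Sfrp5, with 26 and 10 UMIs, was highest in choroid plexus epithelial-like nuclei in both libraries. Wnt1 had 6 UMIs (WBRT-28d) and 18 UMIs (ShamRT-28d), and Wnt3a 1 and 9. Dkk1 and Dkk4 had 0 UMIs in WBRT-28d, which at 56831740 UMIs allows up to 3 counts, and 1 and 3 UMIs in ShamRT-28d, so that no difference was detectable at this depth.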

How the data were processed

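Whole-brain snRNA-seq of 2 libraries, WBRT-28d and ShamRT-28d (2 pooled mice each), was analysed from the UMI counts that the authors deposited, made per their methods with Cell Ranger 5.0.0 against a pre-mRNA reference. The labels name mm10, 10x Genomics single-cell 3′ chemistry, Seurat 3.0 and R 3.5.3. Doublets were called per library with Scrublet in scanpy 1.11.5 on all barcodes. The called doublets were dropped, as were barcodes with under 500 genes or over 5% of UMIs from mitochondrial genes. Clusters came from Seurat 5.3.0 (2000 variable genes without members, 30 components, 20 neighbours, Louvain resolution 0.8) and were named by marker lists, with naming limits set after the clusters had been seen. Member genes, marker and pathway lists were chosen with earlier results of these data known. UMIs were summed per class and library. A ratio was called at 1.5-fold with at least 50 UMIs and 10% of the highest class; the same rule over all genes gave the background. Ratio intervals are conditional binomial, level intervals exact Poisson and share intervals Clopper-Pearson. Every member is accounted for, with values for those of at least 100 UMIs in their highest class and for each called ratio. The calculation was checked on simulated counts. Gene positions are from GENCODE on GRCm38. Because each condition has 1 library, no test was run.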

Additional observations from a re-analysis of the deposited data

Results flagged for a closer look

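A few members differed between classes or clusters in the direction of the ratio of WBRT-28d over ShamRT-28d. With 1 library per condition none of these differences was tested. Rspo1 had a ratio of 1.82 in excitatory and 0.452 in inhibitory neuron-like nuclei. In the inhibitory neuron-like class its WBRT-28d level was not above the level predicted from free RNA. Within the excitatory class, 2 of its 3 clusters with at least 25 UMIs were lower past 1.5-fold, and clusters weighted alike gave a ratio of 1.23. The ratio of Dkk3 was 0.551 in astrocyte-like nuclei, against 1.64 in oligodendrocyte-like and 1.97 in microglia-like nuclei, where the level predicted from free RNA was 11.4 and 13.2 CPM in WBRT-28d. With each nucleus classed by its own markers, the ratios of these last classes were 0.828 and 1.10. Under that setting the opposite direction of Dkk3 remained only in microglia-like nuclei, short of 1.5-fold. The setting also took in other nuclei, with 3319 (WBRT-28d) and 2633 (ShamRT-28d) oligodendrocyte-like nuclei against 1900 and 1925 by cluster. Wnt7b had a ratio of 1.65 in the larger astrocyte-like cluster and 0.301 in the Myoc and Gfap cluster, the second from 9 and 18 UMIs. Rspo3 had a ratio of 1.86 in the inhibitory cluster led by Sst, from 84 UMIs (WBRT-28d) and 37 UMIs (ShamRT-28d), and of 0.295 in the one led by Npffr2 and Foxp2, with 38 and 33 UMIs. Rspo3 also stood out in an unnamed cluster outside the 13 classes, led by Slc47a1 and Bnc2, with 729 CPM over both libraries: 193 UMIs (755 CPM) in 68 nuclei of WBRT-28d and 81 UMIs (674 CPM) in 30 nuclei of ShamRT-28d.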

How the results depend on the processing

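Of the 18 ratios past 1.5-fold, 11 stayed past it under every alternative run. Not every alternative could move a ratio, so this count is no measure of how firm a ratio is. The minimum of 20 UMIs changes only which values are counted, and weighting clusters alike changes nothing in a class of 1 cluster. Leaving out clusters of mostly 1 library touched no glial or vessel class. Among the 11 are Fzd3 in immature and Wnt2b in inhibitory neuron-like nuclei, whose counting intervals include 1. Rspo1 in inhibitory neuron-like nuclei is among them too, with a ratio of 0 once predicted free RNA was subtracted. The direction turned for 2 when each nucleus was gated by its own markers: Fzd1 in inhibitory neuron-like nuclei (1.97) and Dkk3 in oligodendrocyte-like nuclei (0.828). That gating did not keep the same nuclei. It held 647 (WBRT-28d) and 406 (ShamRT-28d) inhibitory neuron-like nuclei, against 3223 and 1645 by cluster. Excitatory neuron-like nuclei numbered 426 and 763, against 3946 and 4067 by cluster. The number of values called higher was 8 of 69 under that gating (7.08% of all genes). With a minimum of 20 UMIs it was 9 of 117 (10.7% of all genes), and the number called lower was 25 (11.4%). The median log2 ratio of members over all kept nuclei was -0.074 with doublets kept and 0.15 without the clusters that hold over 90% of nuclei of 1 library, an alternative chosen after seeing the data. Within clusters, Rspo1 in excitatory neuron-like nuclei was at 1.23, Fzd6 in mural-like nuclei was at 0.680 after predicted free RNA was subtracted, and Wnt9a was at 0.692 under gating. Wnt10a in excitatory neuron-like nuclei (up to 0.732) and Dkk3 in microglia-like nuclei (down to 1.10) also fell short of 1.5-fold under some alternatives. The cause of these moves was not tested. Depth limits members under 50 UMIs in a class, and classes such as ependymal-like (44 and 35 nuclei). No library could be left out, since that leaves a condition with none. No paired analysis was possible because each condition has 1 library.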
